A study of Macaca mulatta with 11 samples.

Results

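The genes described here encode splicing and RNA processing factors: SR proteins, snRNP and LSM proteins, SF3 and U2AF subunits, PRPF, hnRNP and RBM proteins, and the DDX and DHX RNA helicases. They were chosen by gene symbol alone, and 128 of the 14132 genes with a symbol of their own on the array belong to these families. The expression data come from rhesus monkey (Macaca mulatta) cumulus cells, the granulosa-derived somatic layer enclosing the oocyte, measured on 11 Affymetrix arrays, each with 1 sample. The 4 pre-maturation samples (PM) came from immature complexes after stimulation with FSH only. The 3 in vitro matured samples (IVM) came from complexes that matured in culture after FSH stimulation of the animal, and the 4 in vivo matured samples (VVM) came from complexes matured in the animal with FSH followed by hCG. All 3 groups therefore share FSH stimulation, and VVM alone received hCG. The study set IVM against VVM to find cumulus markers of oocyte quality and used PM as the state before maturation. Whether each sample stems from its own animal is not given in the labels. The p-values therefore cover only the spread seen between these arrays, which may be technical.

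Pre-mRNA splicing is carried out by small nuclear ribonucleoproteins (snRNPs), RNA-protein particles that recognise the exon ends and assemble into the spliceosome. SR proteins mostly favour the use of nearby exons, hnRNP proteins coat the transcript and often oppose them, and DEAD-box and DEAH-box helicases remodel RNA at successive steps of splicing, ribosome assembly, export and translation. Cumulus cells respond to the ovulatory signal by leaving the cell cycle, producing a hyaluronan matrix and switching towards progesterone synthesis.

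Each gene was represented by 1 probe set, the one with the highest mean over the 11 arrays, and a gene is called higher or lower where limma's adjusted p lay under 0.05. All values are on the log2 scale of intensity, and a difference of 1 is a 2-fold change. The PM and IVM comparison and the PM and VVM comparison use the same 4 PM arrays, so they are given side by side and are not independent of each other. The level of one gene is not set against the level of another, since probe sets differ in their response.

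The arrays differed in ways that touch these results. Of 14 measured cumulus and granulosa genes, INHA read 13.05 to 14.01 and VCAN 12.51 to 13.81 over all 11 arrays. The expansion genes TNFAIP6 and PTX3 were dim in PM, at 4.42 to 4.82 and 2.63 to 2.76, while HAS2 ranged from 4.35 to 6.90 there. PTX3 was also at 2.94 on IVM 3. Against PM, 6 of the 14 were called higher and 4 lower in IVM, and 5 higher and 6 lower in VVM. Oocyte markers stood apart on PM 1: the summed intensity of the 8 measured was 2061 there, 716 to 791 on the other PM arrays, 818 to 858 in IVM and 702 to 1148 in VVM, and NLRP5 read 8.45 on PM 1 against 3.13 to 4.84 elsewhere. Leukocyte markers stood apart on VVM 2 and VVM 3: the summed intensity of the 11 measured was 1655 and 3304 there, 670 and 783 on the other VVM arrays, 730 to 988 in IVM and 1406 to 1593 in PM, where CSF1R made up most of it. LYZ read 7.62 and 9.51 on VVM 2 and VVM 3 and at most 5.1 elsewhere. Endothelial and red cell markers (6 measured) summed to 1081 to 1491 on the VVM arrays and to 401 to 480 on the others. Of these, HBB, VWF and PECAM1 were called higher in VVM than in PM, while the endothelial genes CDH5, KDR and TEK were not called. Cell division genes fell in both matured groups, 16 of 16 in IVM and 15 of 16 in VVM, and their summed intensity was 23643 to 28124 in PM, 2539 to 7902 in IVM and 2902 to 6525 in VVM. Bacterial hybridization controls read 10.16 to 10.51 in PM, 11.75 to 12.41 in IVM and 10.7 to 11.59 in VVM, without overlap between any of the groups. The 3′ minus 5′ signal of control transcripts, a sign of RNA quality and amplification, was 3.21 to 3.45 in PM, 3.7 to 4.37 in IVM and 3.45 to 3.91 in VVM, without overlap between PM and IVM. In these bulk samples, fewer cells of a type and less RNA per cell cannot be told apart.

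Against PM, the splicing and RNA processing genes were more often lower than higher in both matured groups. In IVM 55 of the 128 fell and 20 rose, where 20.9% of all genes fell and 25.0% rose. In VVM 55 fell and 10 rose, where 21.8% of all genes fell and 18.0% rose. Their share called lower was thus 43.0% in each comparison, and their share called higher was 15.6% and 7.81%. The median difference over the 128 genes was -0.29 in IVM and -0.39 in VVM, against 0.12 and 0.04 over all genes.

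The direct comparison of the matured groups did not lean to one side. Of the 128 genes 19 were higher in IVM than in VVM, where 9.06% of all genes were, and 18 were lower, where 7.63% were. The shares of the family genes were 14.8% and 14.1%, and their median difference was 0.05 against 0.08 over all genes. The 18 lower calls became 11 without IVM 1 and 10 without IVM 2. The groups did not overlap array by array for 19 of the 19 higher genes and for 16 of the 18 lower ones, where 98.0% and 94.3% of all genes so called did not. In IVM against PM this held for 19 of 20 and 49 of 55 genes (94.2% and 91.9% of all genes so called), and in VVM against PM for 10 of 10 and 53 of 55 (89.2% and 89.1%). These shares are near those of all called genes.

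The shift was seen on every matured array but was uneven within IVM. The median difference from the PM mean over the 128 genes was -0.49 on IVM 1, -0.48 on IVM 2 and -0.18 on IVM 3, while all genes together sat between 0.09 and 0.13. On the VVM arrays it was -0.53, -0.37, -0.41 and -0.34, while all genes sat between 0.00 and 0.04. IVM 3 lay closest to PM for these genes, and it also had the highest cell division sum of the IVM arrays, 7902 against 2539 and 3279. The part of cell division in the shift was not tested.

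**Figure D1:**
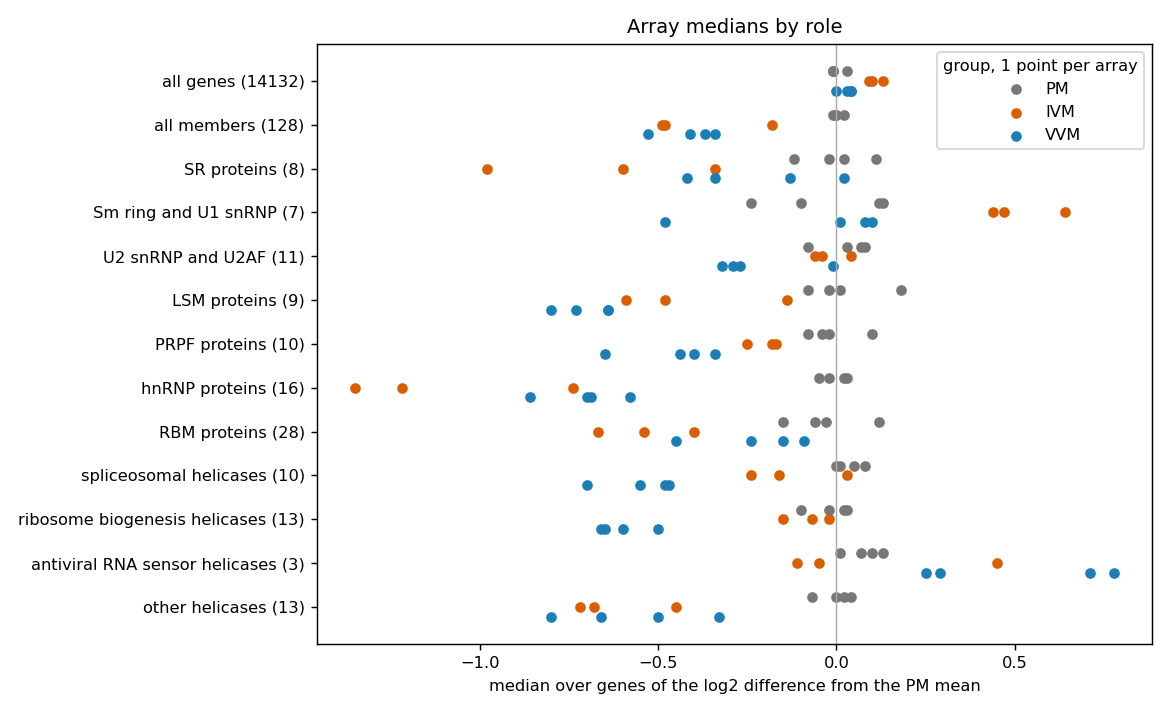
Median over genes of the log2 difference from the PM mean (x axis), with 1 point per array, for all genes, for all 128 members and for each of 11 role groups (number of genes in brackets). The hnRNP medians of the 3 IVM arrays lie between -1.35 and -0.74 and those of the VVM arrays between -0.86 and -0.58, while the Sm and U1 medians of the IVM arrays lie between 0.44 and 0.64.

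Calls depended on how array-level measures were treated. With the hybridization control level as a covariate limma called 0 of the 128 genes, and 0 of all genes, in IVM against PM, while 6 were higher and 19 lower at an unadjusted p under 0.05. The same covariate left 1 higher and 18 lower in VVM against PM, and 2 and 2 in IVM against VVM. For all genes it left 615 and 753, and 158 and 116. The 18 included 4 genes of the U2 and U2AF group, 3 hnRNP genes and no LSM gene or spliceosomal helicase (1 and 2 lower at an unadjusted p under 0.05). Since this level separates PM, IVM and VVM from each other, it and the groups cannot be told apart in any of the comparisons. With the 3′ minus 5′ signal as a covariate 6 were higher and 29 lower in IVM against PM, 7 and 38 in VVM against PM, and 14 and 12 in IVM against VVM. For all genes these counts were 964 and 1238, 1274 and 1916, and 1033 and 858. With PM 1, VVM 2 and VVM 3 left out, the counts were 17 higher and 45 lower for IVM against PM, 3 and 34 for VVM against PM, and 11 and 9 for IVM against VVM. For all genes they were 2396 and 2509, 1153 and 1872, and 657 and 736.

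SR proteins bind exonic enhancers through RNA recognition motifs and recruit the splicing machinery through arginine-serine tails. Of the 8 measured, SRSF5, SRSF6, SRSF8 and SRSF10 fell in IVM against PM and none rose, SRSF8 alone fell in VVM against PM, and SRSF5 and SRSF8 were lower in IVM than in VVM. No SR gene was higher at an unadjusted p under 0.05 either, with 0 in each of the 3 comparisons by limma. The median difference of the 8 was -0.64 in IVM and -0.30 in VVM.

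SRSF5, an SR protein that also shuttles to the cytoplasm, set IVM apart from both other groups. It read 11.91, 12.15, 11.73 and 12.16 on the PM arrays, 10.57, 10.33 and 10.88 on the IVM arrays, and 12.10, 12.15, 11.87 and 12.06 on the VVM arrays. All 3 IVM arrays lay below the lowest of the other 8, and PM and VVM overlapped. The difference was -1.45 ± 0.15 (SE) against VVM, a 2.74-fold lower level (adjusted p = 0.000408), and -1.40 ± 0.15 against PM (adjusted p = 7.99e-05). VVM and PM differed by 0.06 ± 0.14 (adjusted p = 0.794). Of its 4 probe sets, 3 were called lower in IVM in both comparisons, and the fourth differed by -0.01 from VVM and by -0.03 from PM.

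SRSF8 fell in both matured groups on the probe set used. It read 8.09, 8.12, 8.39 and 8.05 in PM, 5.60, 5.95 and 6.45 in IVM, and 6.79, 6.82, 6.68 and 6.56 in VVM. No 2 groups overlapped. Against PM it was lower by 2.16 ± 0.18 in IVM (adjusted p = 1.69e-05) and by 1.45 ± 0.17 in VVM (adjusted p = 0.000105). It was lower in IVM than in VVM (-0.71 ± 0.18, adjusted p = 0.0264), a call that was lost without any 1 of IVM 1, IVM 2, VVM 1 and VVM 2. The second, dimmer probe set of SRSF8 was called in no comparison, with differences between -0.07 and 0.07.

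SRSF6 read 11.36 to 12.12 in PM, 10.34 to 10.86 in IVM and 10.94 to 11.77 in VVM. Its IVM arrays lay below all others, and it differed by -1.04 ± 0.24 from PM (adjusted p = 0.00567), while its difference of -0.75 ± 0.24 from VVM was not called (adjusted p = 0.0651). SRSF10, a splicing repressor after heat shock, read 8.64 to 8.91 in PM, 7.18 to 8.12 in IVM and 7.90 to 8.67 in VVM, and fell in IVM against PM (-0.99 ± 0.24, adjusted p = 0.00846). For SRSF4, SRSF9, SRSF11 and SRSF12 the differences lay between -0.33 and 0.44 in the 3 comparisons and none was called. SRSF11 was uneven within VVM, from 5.52 on VVM 1 to 7.40 on VVM 4.

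**Figure D2:**
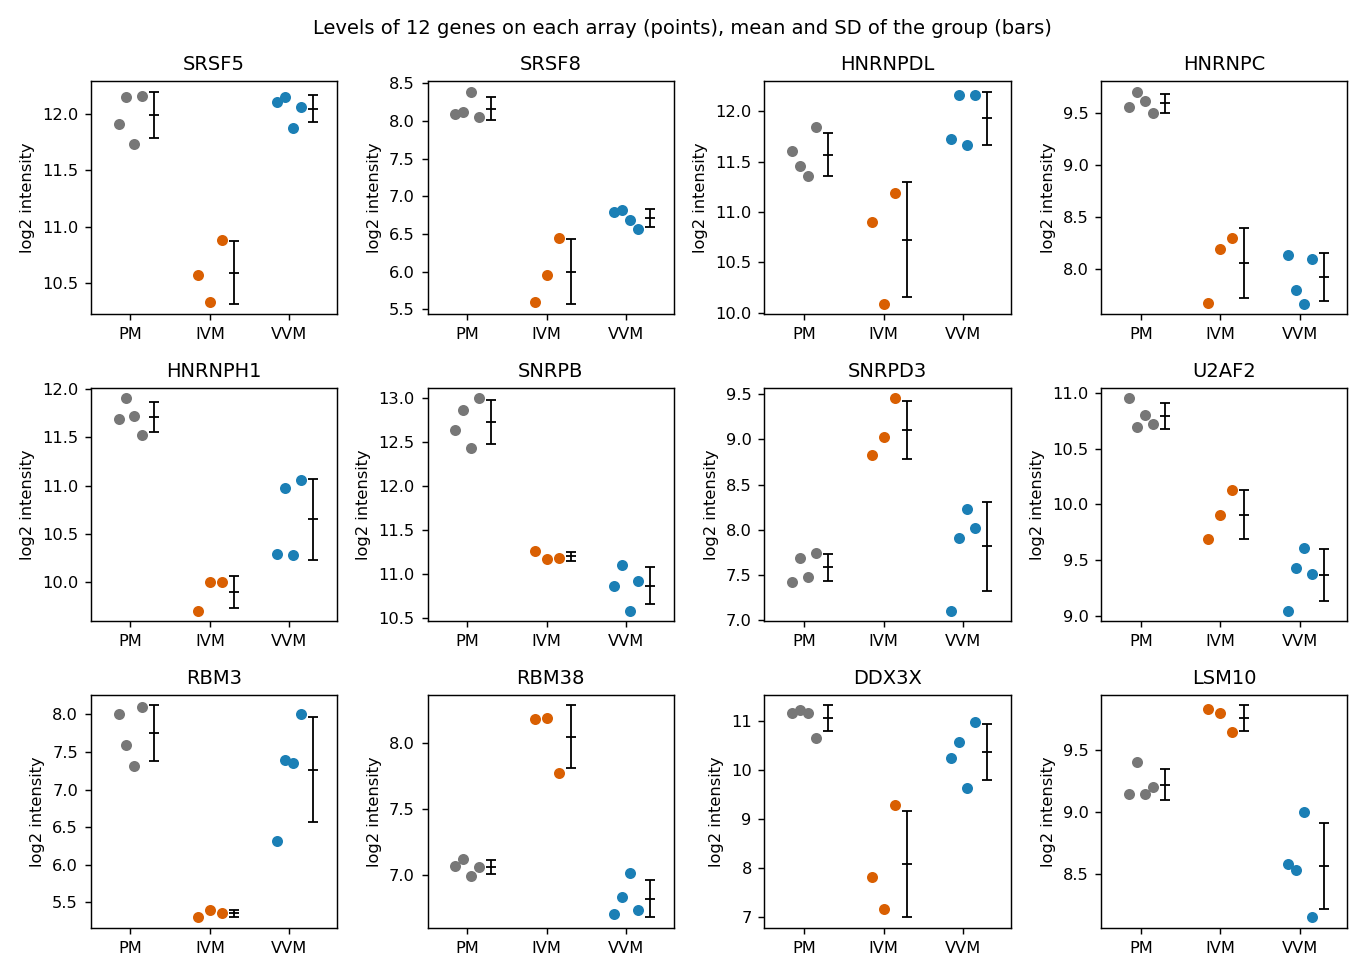
Log2 intensity (y axis, its range set per panel) of 12 genes on each PM, IVM and VVM array (points), with the group mean and SD beside them. SRSF5, RBM3 and DDX3X are low on the 3 IVM arrays, HNRNPC, SNRPB and U2AF2 are low in both matured groups, and SNRPD3, RBM38 and LSM10 are high in IVM.

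The Sm proteins form the ring around the U1, U2, U4 and U5 RNAs, and SNRPA and SNRPC are proteins of the U1 snRNP, which reads the 5′ splice site. In IVM against PM, SNRPC, SNRPD3, SNRPE and SNRPN rose and SNRPB fell, and the median difference of the 7 measured genes was 0.46. It stayed above 0 under every normalization tried, from 0.32 to 0.76, and was 0.08 without cross-hybridizing probe sets. In VVM against PM, SNRPA and SNRPB fell and none rose (0 also at an unadjusted p under 0.05), and in IVM against VVM, SNRPA, SNRPC and SNRPD3 were higher and none was lower (likewise 0). With PM 1, VVM 2 and VVM 3 left out, 1 gene of this group was called higher in IVM than in VVM. The call of SNRPC against VVM was lost without any 1 of the IVM or VVM arrays.

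SNRPD3, the Sm D3 subunit, read 7.43, 7.69, 7.48 and 7.74 in PM, 8.83, 9.03 and 9.45 in IVM, and 7.11, 7.91, 8.23 and 8.02 in VVM. All IVM arrays lay above all others, with PM and VVM overlapping. The rise was 1.52 ± 0.24 against PM (2.87-fold, adjusted p = 0.000752) and 1.29 ± 0.24 against VVM (adjusted p = 0.00658). SNRPB, the Sm B subunit, went the other way. It read 12.63, 12.86, 12.43 and 12.99 in PM, 11.26, 11.17 and 11.18 in IVM, and 10.87, 11.10, 10.59 and 10.92 in VVM. Every matured array lay below the lowest PM array, and every IVM array lay above every VVM array. The fall was 1.53 ± 0.15 in IVM (adjusted p = 4.76e-05) and 1.86 ± 0.14 in VVM (adjusted p = 1.25e-05), and both of its probe sets were called lower in both comparisons. SNRPN, which encodes an Sm protein closely related to that of SNRPB from an imprinted locus, read 12.48 to 12.74 in PM and 13.06 to 13.10 in IVM, a rise of 0.46 ± 0.11 (adjusted p = 0.00796).

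SNRPA, an RNA-binding protein of the U1 snRNP, was low in VVM. It read 9.81, 10.03, 9.56 and 10.11 in PM, 8.97, 9.50 and 9.58 in IVM, and 7.67, 8.26, 8.23 and 8.66 in VVM. The VVM arrays lay below all others, while IVM 3 fell within the PM range. VVM was lower than PM by 1.67 ± 0.21 (adjusted p = 0.000205) and IVM was higher than VVM by 1.14 ± 0.23 (adjusted p = 0.00942). IVM differed from PM by -0.53 ± 0.23, which was not called (adjusted p = 0.0865).

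SF3A and SF3B belong to the U2 snRNP, which binds the branch point, and U2AF reads the 3′ splice site. Among the 11 genes measured, SF3B3, SF3B4, U2AF1 and U2AF2 fell in both matured groups. SF3A3, SF3B2 and SF3B5 rose in IVM against PM and were higher in IVM than in VVM, as was U2AF2 against VVM. Nothing in this group rose in VVM against PM or was lower in IVM than in VVM, with 0 at an unadjusted p under 0.05 as well. The 4 higher calls against VVM fell to 1 once PM 1, VVM 2 and VVM 3 were omitted, and also to 1 without IVM 3 or without VVM 1 and to 2 without IVM 2 or without VVM 2. The 3 rises of the 11 genes against PM are near the share of all genes (25.0%) and became 1 without IVM 3.

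U2AF2, the large subunit that binds the polypyrimidine tract, read 10.95, 10.69, 10.80 and 10.72 in PM, 9.69, 9.91 and 10.13 in IVM, and 9.05, 9.43, 9.61 and 9.38 in VVM. The 3 groups did not overlap, with VVM lowest. The fall was 0.88 ± 0.15 in IVM (adjusted p = 0.00122) and 1.42 ± 0.14 in VVM (adjusted p = 4.44e-05). The second, dimmer probe set of U2AF2 was called lower than PM in VVM (-0.41) but not in IVM (-0.08). U2AF1, its small partner that reads the terminal AG, read 11.06 to 11.36 in PM, 10.12 to 10.44 in IVM and 9.60 to 10.26 in VVM. It fell by 0.91 ± 0.16 (adjusted p = 0.00139) and by 1.29 ± 0.15 (adjusted p = 0.000109). The second, dimmer probe set of U2AF1 was likewise called lower than PM in VVM (-0.53) but not in IVM (-0.46). U2AF1L4, a shorter paralog, read 5.47 to 5.95 over all 11 arrays and was not called in any comparison.

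SF3B3 read 11.83 to 12.04 in PM, 10.93 to 11.29 in IVM and 10.70 to 10.81 in VVM, and it fell by 0.87 ± 0.12 in IVM (adjusted p = 0.000267) and by 1.15 ± 0.11 in VVM (adjusted p = 3.29e-05). Both other probe sets of SF3B3, which are dimmer, were called higher in IVM against PM (0.74 and 0.47). SF3B4 read 10.52 to 10.67 in PM, 9.42 to 9.91 in IVM and 9.52, 9.43, 9.36 and 8.36 in VVM, where VVM 1 held the lowest value. It fell by 0.93 ± 0.24 (adjusted p = 0.0119) and by 1.41 ± 0.23 (adjusted p = 0.000842). The first of these calls was lost without IVM 2. SF3B2, another SF3B subunit, rose instead. It read 9.25 to 9.60 in PM, 10.11 to 10.36 in IVM and 9.21 to 9.52 in VVM, a difference of 0.79 ± 0.13 from PM (adjusted p = 0.000941) and 0.77 ± 0.13 from VVM (adjusted p = 0.00393). The second, dimmer probe set of SF3B2 was not called in any comparison.

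LSM proteins form Sm-like rings on the U6 RNA in the nucleus and on decaying mRNA in the cytoplasm. Of the 9 measured, 7 fell and none rose in VVM against PM (0 also at an unadjusted p under 0.05), with a median difference of -0.82 that lay between -0.92 and -0.65 under the normalizations tried. In IVM against PM, LSM6, LSM14A and LSM14B fell and LSM1 and LSM10 rose. LSM2 and LSM10 were higher and LSM14A lower in IVM than in VVM. The call of LSM14A was lost without any 1 of IVM 1, IVM 2, VVM 1, VVM 2 and VVM 4, and that of LSM2 without any 1 of 8 arrays, among them PM 1, VVM 2 and VVM 3. The 7 falls in VVM dropped to 2 once PM 1, VVM 2 and VVM 3 were omitted, and to 0 with the hybridization control covariate (limma, 1 lower at an unadjusted p under 0.05).

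LSM10, a ring subunit of the U7 snRNP that processes histone mRNA, moved in opposite directions from PM. It read 9.14, 9.40, 9.14 and 9.20 in PM, 9.83, 9.80 and 9.64 in IVM, and 8.58, 8.53, 9.0 and 8.15 in VVM. The 3 groups did not overlap. It rose by 0.54 ± 0.17 in IVM (adjusted p = 0.0286) and fell by 0.65 ± 0.16 in VVM (adjusted p = 0.00967), and IVM exceeded VVM by 1.19 ± 0.17 (2.28-fold, adjusted p = 0.00178). The rise against PM was lost without any 1 of PM 1, PM 3, PM 4, IVM 1 and IVM 2, while the difference between IVM and VVM was called in every fit that left out 1 array. LSM14A, a component of cytoplasmic RNP granules, read 10.65 to 10.89 in PM, 8.71 to 9.60 in IVM and 9.56 to 10.33 in VVM. It fell by 1.62 ± 0.21 in IVM (adjusted p = 0.000226) and by 0.80 ± 0.20 in VVM (adjusted p = 0.0101).

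PRPF proteins serve mainly in the U4/U6.U5 tri-snRNP and in the complexes that activate the spliceosome. Of the 10 measured, PRPF38B and PRPF39 fell in both matured groups, PRPF3, PRPF6 and PRPF19 fell in VVM against PM, and PRPF31 rose in IVM against PM, a call lost without IVM 2. PRPF39, a U1-associated protein, read 6.47, 6.59, 6.71 and 6.45 in PM, 4.91, 5.19 and 5.2 in IVM, and 5.30, 5.47, 5.37 and 5.29 in VVM. The PM arrays lay above all others. It was called lower in IVM (-1.46 ± 0.12, adjusted p = 1.47e-05) and in VVM (-1.2 ± 0.11, adjusted p = 2.62e-05), but its mean in both, 5.1 and 5.36, lay below the medians of those arrays (5.43 to 5.53), so the size of the fall is not well measured. PRPF19, the ubiquitin ligase of a spliceosome-activating complex, read 10.16 to 10.81 in PM, 9.74 to 10.34 in IVM and 8.72 to 9.54 in VVM. It was lower in VVM than in PM by 1.36 ± 0.22 (adjusted p = 0.000839) and higher in IVM than in VVM by 0.94 ± 0.23 (adjusted p = 0.0255). That last call was lost without any 1 of IVM 2, IVM 3, VVM 1 and VVM 4. PRPF8, the central scaffold of the catalytic core, was not called, with differences of 0.26 ± 0.17 in IVM and -0.23 ± 0.16 in VVM from PM.

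The hnRNP genes, which package nascent transcripts and steer splice site choice, were called lower more often than higher in both matured groups. Of the 16 measured, 14 fell and none rose in IVM against PM (1 rose at an unadjusted p under 0.05), and 10 fell and 1 rose in VVM against PM. In IVM 6 were lower than in VVM and none was higher (0 at an unadjusted p under 0.05). The median difference was -1.05 in IVM and -0.69 in VVM from PM, and -0.39 between IVM and VVM. Under the normalizations tried these medians lay between -1.2 and -0.84, between -0.80 and -0.51, and between -0.43 and -0.28. The 6 lower calls against VVM fell to 3 without IVM 1 or without IVM 2. With PM 1, VVM 2 and VVM 3 left out limma called none of the 16 between IVM and VVM, while 7 were lower at an unadjusted p under 0.05, and the falls from PM numbered 11 in IVM and 7 in VVM.

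HNRNPC, which binds uridine tracts and masks cryptic splice sites, fell alike in both groups. It read 9.56, 9.71, 9.62 and 9.50 in PM, 7.67, 8.19 and 8.30 in IVM, and 8.13, 7.79, 7.66 and 8.09 in VVM. PM lay above every matured array, and IVM and VVM overlapped. The fall was 1.54 ± 0.17 in IVM (2.92-fold, adjusted p = 7.06e-05) and 1.68 ± 0.16 in VVM (3.20-fold, adjusted p = 3.02e-05).

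HNRNPH1 and its relatives bind guanosine-rich runs. HNRNPH1 read 11.69, 11.90, 11.72 and 11.52 in PM, 9.71, 10.00 and 10.00 in IVM, and 10.29, 10.97, 10.28 and 11.06 in VVM, with no overlap between the 3 groups. It fell by 1.81 ± 0.20 in IVM (adjusted p = 8.83e-05) and by 1.06 ± 0.19 in VVM (adjusted p = 0.00161). Its difference of -0.75 ± 0.20 between IVM and VVM (adjusted p = 0.0373) was lost without any 1 of PM 1, PM 3, IVM 1, IVM 2, IVM 3, VVM 2 and VVM 4. HNRNPH2 read 7.62, 6.56, 7.46 and 7.78 in PM, 5.47, 5.19 and 6.05 in IVM, and 6.94, 7.41, 6.58 and 7.18 in VVM. IVM lay below all others and PM and VVM overlapped, with differences of -1.78 ± 0.30 from PM (adjusted p = 0.00114) and -1.46 ± 0.30 from VVM (adjusted p = 0.0111, lost without IVM 2). HNRNPH3 read 10.08 to 10.61 in PM, 8.32 to 9.20 in IVM and 8.80 to 9.22 in VVM, a fall of 1.5 ± 0.21 (adjusted p = 0.000347) and of 1.36 ± 0.19 (adjusted p = 0.000414).

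HNRNPDL, a relative of the mRNA decay factor AUF1, was low in IVM and not in VVM. It read 11.61, 11.46, 11.36 and 11.85 in PM, 10.90, 10.09 and 11.19 in IVM, and 11.73, 12.16, 11.67 and 12.16 in VVM. IVM did not overlap with either other group. It was lower than VVM by 1.2 ± 0.24 (adjusted p = 0.00931) and than PM by 0.84 ± 0.24 (adjusted p = 0.0177, lost without IVM 2), and VVM and PM differed by 0.36 ± 0.22 (adjusted p = 0.249). Its probe sets disagreed: a second was called lower in IVM in both comparisons (-1.41 and -1.52), another was not called, and the last was higher in VVM than in PM by 1.56. HNRNPLL, a regulator known from activated T cells, was the 1 hnRNP gene higher in VVM than in PM (0.74 ± 0.12, adjusted p = 0.00103), with 8.28 to 8.70 in PM and 9.12 to 9.37 in VVM. Its VVM level on the leukocyte-marked arrays was 9.12 and 9.37, and on the other VVM arrays 9.28 and 9.25. HNRNPU had no call on the probe set used, which read 9.45 to 10.92. A nearly as bright probe set of HNRNPU was called lower in IVM against VVM (-1.02, adjusted p = 0.0104) and against PM (-1.07, adjusted p = 0.00263), and a dimmer one higher in IVM against PM (0.73).

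**Figure D3:**
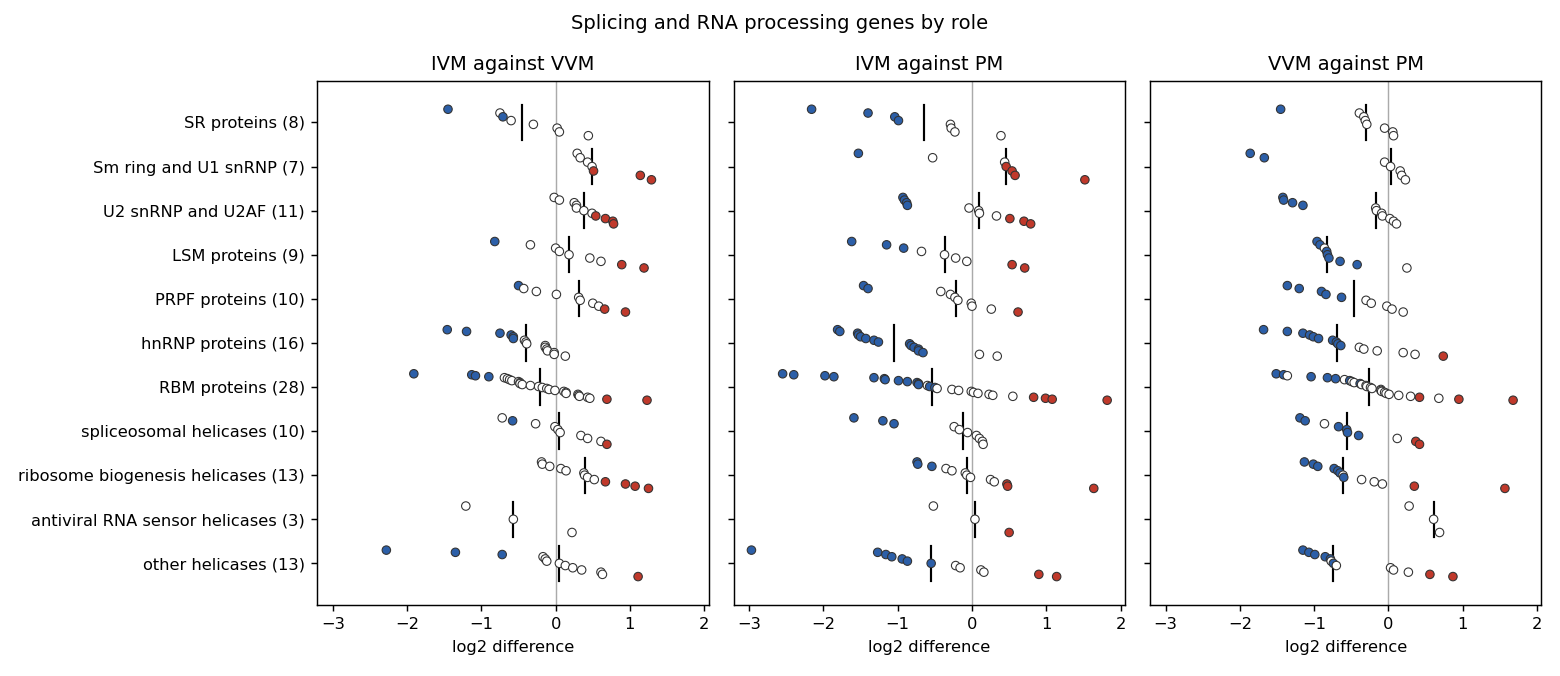
Log2 difference (x axis) of each of the 128 genes by role group (y axis, number of genes in brackets) in the 3 comparisons. Red points were called higher, blue points lower and open points were not called, and the black bar is the group's median. In IVM against PM 14 of 16 hnRNP genes are blue and none is red, while 4 of 7 Sm and U1 genes are red.

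RBM genes share an RNA recognition motif and otherwise differ in function. Of the 28 measured, 14 fell and 4 rose in IVM against PM, 7 fell and 3 rose in VVM against PM, and 4 were lower and 2 higher in IVM than in VVM. Their median difference was -0.54, -0.27 and -0.21 in the 3 comparisons. The 7 falls in VVM against PM and the 2 genes higher in IVM than in VVM are near the shares of all genes (21.8% and 9.06%).

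RBM3, a cold-inducible RNA-binding protein that promotes translation, was low in IVM. It read 8.01, 7.60, 7.31 and 8.10 in PM, 5.30, 5.40 and 5.36 in IVM, and 6.31, 7.39, 7.36 and 8.0 in VVM. All IVM arrays lay below the lowest of the rest, and PM and VVM overlapped. The difference was -2.40 ± 0.32 from PM (adjusted p = 0.000269) and -1.91 ± 0.32 from VVM (adjusted p = 0.00392), and both probe sets were called in both comparisons. The IVM mean of 5.35 lay below the medians of the IVM arrays (5.45 to 5.53), where the size of a difference is not well measured. CIRBP, the other cold-inducible protein of this kind and no RBM gene by symbol, did not fall. It was chosen after its values were seen, read 8.84 to 9.59 in IVM and 7.98 to 8.38 in VVM, and was higher in IVM by 0.96 ± 0.20 (adjusted p = 0.0117), with 2 of its 4 probe sets called so.

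RBM27, which acts in nuclear RNA surveillance, read 9.89, 10.39, 10.09 and 10.00 in PM, 7.61, 7.20 and 7.83 in IVM, and 9.06, 8.47, 8.75 and 8.44 in VVM. The 3 groups did not overlap, with IVM lowest. It fell by 2.55 ± 0.19 in IVM (5.84-fold, adjusted p = 1.18e-05) and by 1.41 ± 0.18 in VVM (adjusted p = 0.000202). The second, dimmer probe set of RBM27 went the other way in IVM against PM (1.10 ± 0.26, adjusted p = 0.00692). RBM28 likewise fell in IVM by 1.86 ± 0.27 (adjusted p = 0.000477) and in VVM by 1.51 ± 0.25 (adjusted p = 0.00113) on the probe set used, while its other probe set rose in IVM by 0.58 ± 0.19 (adjusted p = 0.0285). RBM33 read 8.77 to 9.25 in PM, 7.65 to 8.26 in IVM and 8.79 to 9.14 in VVM, and was lower in IVM than in VVM by 1.08 ± 0.17 (adjusted p = 0.0032). None of the other, dimmer probe sets of RBM33 was called in any comparison.

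RBM38, a target of p53 that stabilises the mRNA of the cell cycle inhibitor p21, was high in IVM. It read 7.07, 7.12, 6.99 and 7.06 in PM, 8.18, 8.19 and 7.77 in IVM, and 6.70, 6.83, 7.01 and 6.73 in VVM. IVM lay above all others, and PM and VVM overlapped. The difference was 0.99 ± 0.13 from PM (adjusted p = 0.000223) and 1.23 ± 0.13 from VVM (2.35-fold, adjusted p = 0.000377). RBM42 was also higher in IVM than in PM (0.83 ± 0.14, adjusted p = 0.00107) and VVM (0.69 ± 0.14, adjusted p = 0.00949). RBM41 rose in both groups, by 1.08 ± 0.23 in IVM (adjusted p = 0.00372) and by 0.95 ± 0.21 in VVM (adjusted p = 0.00604). RBM47 rose on the probe set used, by 1.82 ± 0.38 and 1.68 ± 0.35 (adjusted p = 0.00327 and 0.00396), but a dimmer one fell by 2.34 and 1.84 in the same comparisons.

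The oocyte markers of PM 1 touch 2 RBM genes. RBM46, known from germ cells, read 5.92 on PM 1 and 3.34 to 3.83 on the other PM arrays, with 5.05 on IVM 3, and was not called. RBM20, known for titin splicing in the heart, read 8.70 on PM 1 and 5.36 to 6.46 on the other PM arrays, against 4.22 to 5.43 in IVM. Its fall of 1.98 ± 0.66 in IVM (adjusted p = 0.0327) was called without PM 1 but not without any 1 of PM 4, IVM 1 and IVM 2. Its IVM mean of 4.7 lay below the medians of the IVM arrays. The part of oocyte RNA in these values was not tested.

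Helicases of the spliceosome drive its rearrangements in order. Of the 10 measured, DDX46, DHX15 and DHX35 fell in IVM against PM and none rose (0 also at an unadjusted p under 0.05), and in VVM 6 fell and 2 rose. The 2 rises are near the share of all genes (18.0%). DDX46, which acts when the U2 snRNP joins the branch point, read 10.39 to 10.86 in PM, 9.07 to 9.65 in IVM and 9.28 to 9.55 in VVM, and it fell by 1.2 ± 0.17 (adjusted p = 0.000415) and by 1.19 ± 0.16 (adjusted p = 0.000284). DHX35 fell by 1.05 ± 0.17 (adjusted p = 0.000686) and 1.12 ± 0.15 (adjusted p = 0.000317). DHX15, which takes spent spliceosomes apart, read 10.13 to 10.35 in PM, 8.46, 7.81 and 9.72 in IVM, and 8.93 to 9.65 in VVM. It was lower in IVM than in PM by 1.59 ± 0.35 (adjusted p = 0.00476), and its VVM difference of -0.86 ± 0.32 was not called (adjusted p = 0.0636). The 6 falls in VVM dropped to 3 without PM 1, without PM 4 or without VVM 2 and to 2 once PM 1, VVM 2 and VVM 3 were omitted. DDX42 and DHX38 rose in VVM against PM by 0.42 ± 0.13 and 0.37 ± 0.10, and the call of DDX42 was lost without any 1 of the 4 PM arrays, VVM 1 and VVM 4.

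Helicases of ribosome biogenesis were mostly lower in VVM. Of the 13 measured, 7 fell and 2 rose in VVM against PM, 3 fell and 3 rose in IVM against PM, and DDX10, DDX54, DDX56 and DHX37 were higher in IVM than in VVM with none lower (0 also at an unadjusted p under 0.05). Their median difference was -0.61 in VVM from PM and lay between -0.71 and -0.42 under the normalizations tried. The counts of IVM against PM, 3 of 13 in each direction, are near the shares of all genes (20.9% lower and 25.0% higher). Those 3 falls became 1 without IVM 2, and the 2 rises in VVM became 1 without PM 1 or without VVM 3. These 2 rises are also near the share of all genes (18.0%). The 7 falls became 5 with PM 1, VVM 2 and VVM 3 left out. DHX37, which releases the U3 snoRNA from the pre-ribosome, read 8.51, 8.75, 8.61 and 8.60 in PM, 8.74, 9.24 and 8.76 in IVM, and 7.22, 7.99, 7.79 and 7.66 in VVM. VVM lay below all others. It was higher in IVM than in VVM by 1.25 ± 0.18 (2.38-fold, adjusted p = 0.002) and lower in VVM than in PM by 0.95 ± 0.17 (adjusted p = 0.00169).

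DDX56, a nucleolar helicase of the large subunit, moved in opposite directions from PM. It read 8.50, 9.05, 8.81 and 8.76 in PM, 9.03, 9.22 and 9.51 in IVM, and 8.12, 8.01, 8.34 and 8.25 in VVM. IVM 1 fell within the PM range, and VVM lay below all others. It rose by 0.47 ± 0.16 in IVM (adjusted p = 0.0328) and fell by 0.60 ± 0.15 in VVM (adjusted p = 0.00963), and IVM exceeded VVM by 1.07 ± 0.16 (adjusted p = 0.00192). The rise was lost without any 1 of PM 1, PM 3, PM 4, IVM 2 and IVM 3. DDX24 was high in both matured groups, with 8.50 to 9.42 in PM, 9.96 to 11.09 in IVM and 9.84 to 11.07 in VVM, and rose by 1.64 ± 0.33 (adjusted p = 0.00284) and 1.57 ± 0.30 (adjusted p = 0.00275), but its other 2 probe sets were not called.

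DDX10 shows how much the probe set matters. The probe set used differed by -0.07 ± 0.16 in IVM against PM (adjusted p = 0.729), by -1.01 ± 0.15 in VVM against PM (adjusted p = 0.000422), and by 0.94 ± 0.16 between IVM and VVM (adjusted p = 0.00369). The other 3 probe sets fell by 3.30 to 4.07 in IVM and by 2.95 to 3.34 in VVM, and differed by -0.77 to -0.36 between IVM and VVM without a call. Which of these follows the full transcript was not tested.

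The remaining helicases act in translation, export, decay and DNA maintenance. Of the 13 measured, 7 fell and 2 rose in IVM against PM, 6 fell and 2 rose in VVM against PM, and 3 were lower and 1 higher in IVM than in VVM. The 2 rises in VVM and the 1 gene higher in IVM than in VVM are near the shares of all genes (18.0% and 9.06%). DDX3X, an X-linked helicase that helps structured mRNAs to be translated, had the largest difference of all 128 genes in IVM against PM and in IVM against VVM. It read 11.18, 11.24, 11.17 and 10.67 in PM, 7.82, 7.16 and 9.29 in IVM, and 10.26, 10.58, 9.64 and 10.99 in VVM. IVM lay below all others, with IVM 3 nearest to them, and VVM 4 fell within the PM range. The difference was -2.97 ± 0.44 from PM (7.84-fold, adjusted p = 0.000462) and -2.28 ± 0.44 from VVM (4.84-fold, adjusted p = 0.00722), while VVM differed from PM by -0.70 ± 0.40 (adjusted p = 0.215). All 3 probe sets were called lower in IVM against PM, and 2 of the 3 against VVM.

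DHX30, a helicase of mitochondrial RNA granules, was high in IVM. It read 9.49, 9.25, 9.52 and 9.79 in PM, 10.65, 10.58 and 10.73 in IVM, and 9.13, 9.52, 9.74 and 9.79 in VVM, and IVM lay above all others. The rise was 1.14 ± 0.17 against PM (adjusted p = 0.000536) and 1.11 ± 0.17 against VVM (adjusted p = 0.00252). DDX59 read 5.92 to 6.42 in PM, 4.55 to 5.25 in IVM and 6.14 to 6.73 in VVM, and was lower in IVM by 1.08 ± 0.21 and 1.35 ± 0.21 (adjusted p = 0.00228 and 0.00249), with an IVM mean of 5.02 that also lay below the medians of the IVM arrays. DHX29, which helps ribosomes scan structured leaders, fell by 1.27 ± 0.19 in IVM (adjusted p = 0.000487) and 1.15 ± 0.17 in VVM (adjusted p = 0.0006). DHX40 was higher in VVM than in PM by 0.87 ± 0.13 (adjusted p = 0.000637), with 10.23 to 10.49 in PM and 11.04 to 11.42 in VVM. The second probe set of DHX40 was not called in that comparison (-0.07), and it was called lower in IVM than in PM (-1.03). DHX34, of nonsense-mediated decay, rose by 0.90 ± 0.13 and 0.56 ± 0.12 from PM on the probe set used (adjusted p = 0.00035 and 0.00444), while its other probe set fell by 0.66 and 0.94.

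Helicases linked to antiviral sensing were few. DHX58, known as LGP2, read 7.52 to 7.98 in PM, 6.96 to 7.80 in IVM and 8.96, 8.05, 10.00 and 7.15 in VVM. Its highest value fell on VVM 3, the array with the most leukocyte marker signal, and the lowest of VVM on VVM 4, and no comparison was called. The part of leukocytes in this spread was not tested. DDX60L rose in IVM against PM (0.50 ± 0.11, adjusted p = 0.00551). DDX60 was not called. The germ cell helicase DDX4 and the Y-linked DDX3Y are not analysed here, nor are SRSF1, SRSF2, SRSF3, SRSF7, HNRNPA2B1, SF3B1, DDX5 and DDX17.

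Different probe sets of a gene often disagreed, which matters for genes whose transcript ends and splice forms vary. The 128 genes carried 270 probe sets, and 79 had more than 1. Among called genes with several, all probe sets were called the same way for 2 of 21 in IVM against VVM, 9 of 52 in IVM against PM and 11 of 44 in VVM against PM. The 2 of the first comparison are RBM3 and DHX40. For 12, 29 and 25 of them the probe set used was the only one called. Probe sets were called in both directions for 1, 15 and 7 genes. HNRNPK was among these in all 3 comparisons: in IVM against PM 4 of its 5 probe sets fell, by 0.72 to 3.17, and the dimmest rose by 0.96. SF3A1, with 8 probe sets, was not called on the brightest, while in IVM against PM 4 others were called lower (-2.15 to -0.73) and 2 higher (0.88 and 1.70).

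**Figure D4:**
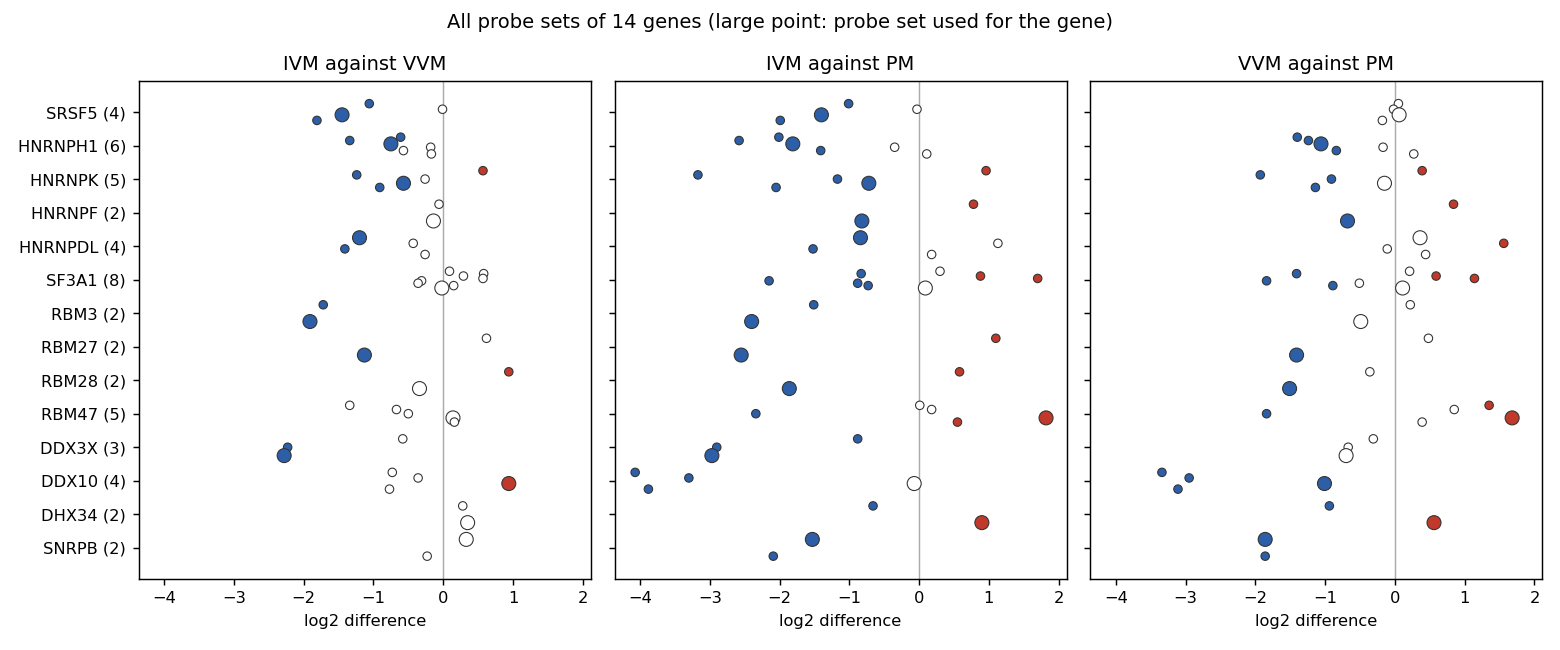
Log2 difference (x axis) of every probe set of 14 genes (y axis, number of probe sets in brackets) in the 3 comparisons, with the probe set used for the gene drawn large. Red was called higher, blue lower, open not called. Both probe sets of RBM3 and of SNRPB agree where they are called, while RBM27, RBM47, DHX34, HNRNPK and SF3A1 have probe sets on both sides of 0 in IVM against PM.

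Other genes of RNA processing outside these families were counted in the same way, and their counts stand against the shares of all genes given above (20.9% lower and 25.0% higher in IVM against PM, 21.8% and 18.0% in VVM against PM, 7.63% and 9.06% in IVM against VVM). Among 42 other spliceosome components 16 fell and 8 rose in IVM and 18 fell and 4 rose in VVM, and in IVM 7 were higher and 3 lower than in VVM. These 7 became 3 without IVM 2, 4 without IVM 3 and 1 once PM 1, VVM 2 and VVM 3 were omitted, and the 3 lower became 0 without IVM 1 or IVM 2 and 1 without VVM 1, VVM 2 or VVM 4. The 8 rises in IVM became 5 without IVM 1. Among 35 splicing regulators 13 fell and 3 rose in IVM, 9 fell and 5 rose in VVM, and in IVM 8 were lower and 2 higher than in VVM. Without IVM 2 these became 3 and 0, and the 2 became 1 without IVM 3 or VVM 3. Without VVM 1 the rises from PM became 5 in IVM and 8 in VVM. Among 17 genes of the exon junction complex and mRNA export 6 rose and 5 fell in IVM, 5 fell and none rose in VVM (0 at an unadjusted p under 0.05 too), and in IVM 3 were higher and 1 lower than in VVM, or 5 higher without IVM 1. Among 12 genes of 3′ end processing 3 fell and 1 rose in IVM, 5 fell and none rose in VVM (1 rose at an unadjusted p under 0.05), and 4 were higher and none lower in IVM than in VVM (0 unadjusted). The 3 falls in IVM are near the share of all genes, and the 4 became 2 without IVM 3, VVM 2 or VVM 4. Of 6 kinases listed as possibly acting on SR proteins, DYRK1A and HIPK2 were lower in IVM than in both other groups, and DYRK1A alone fell in VVM. CLK1, CLK3, CLK4 and SRPK2 were not called in any comparison on the probe set used. The other 2 probe sets of DYRK1A were not called in IVM against either group. Several of the 7 probe sets of HIPK2 were not called there either, with differences of -0.23 to -0.03 from VVM.

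SFPQ and NONO encode partner proteins of nuclear paraspeckles that bind transcripts co-transcriptionally. SFPQ read 12.24, 12.33, 12.23 and 12.08 in PM, 8.90, 8.87 and 9.39 in IVM, and 10.21, 10.70, 9.79 and 9.99 in VVM, with no overlap between groups. It fell by 3.17 ± 0.20 in IVM (adjusted p = 6.42e-06) and by 2.05 ± 0.19 in VVM (adjusted p = 2.86e-05), and all 3 of its probe sets were called lower in both. NONO read 10.85 to 11.41 in PM, 8.66 to 9.28 in IVM and 8.74 to 9.59 in VVM, and fell by 2.24 ± 0.23 (adjusted p = 5.01e-05) and 2.09 ± 0.21 (adjusted p = 5.08e-05), but its second probe set was not called.

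PABPN1, the nuclear poly(A)-binding protein, read 10.64 to 11.24 in PM, 7.97 to 8.30 in IVM and 8.23 to 8.84 in VVM. It fell by 2.71 ± 0.19 in IVM (adjusted p = 7.82e-06), and its difference in VVM was -2.39 ± 0.17 (adjusted p = 8.79e-06), with a second probe set not called. PLRG1, which belongs to the same complex as PRPF19, fell by 2.63 ± 0.26 in IVM (adjusted p = 4.05e-05) and by 2.08 ± 0.24 in VVM (adjusted p = 0.000108). SREK1, an SR-related regulator, was low in IVM, with 7.70, 7.24 and 8.53 there, 8.73 to 9.29 in PM and 9.16 to 9.61 in VVM. It differed from VVM by -1.63 ± 0.26 (adjusted p = 0.00318) and from PM by -1.21 ± 0.26 (adjusted p = 0.00441). QKI, a STAR-family splicing regulator, read 11.85 to 12.16 in PM, 10.79 to 11.38 in IVM and 11.91 to 12.58 in VVM and was lower in IVM than in VVM by 1.15 ± 0.18 (adjusted p = 0.00241). The others of its 8 probe sets differed by -1.95 to 0.13 between IVM and VVM, and not all of them were called. One was called higher in IVM than in PM (0.40). GEMIN4, of the SMN complex that loads Sm rings, was low in VVM, with 7.20 to 7.58 there and 8.38 to 9.37 on all other arrays, and was higher in IVM than in VVM by 1.18 ± 0.17 (adjusted p = 0.00184). The second probe set of GEMIN4 was called lower in VVM than in PM (-0.94) but was not called between IVM and VVM (0.16). CWC15 rose in IVM against PM by 1.73 ± 0.21 (adjusted p = 0.000125) and in VVM by 0.73 ± 0.19 (adjusted p = 0.0136).

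**Figure D5:**
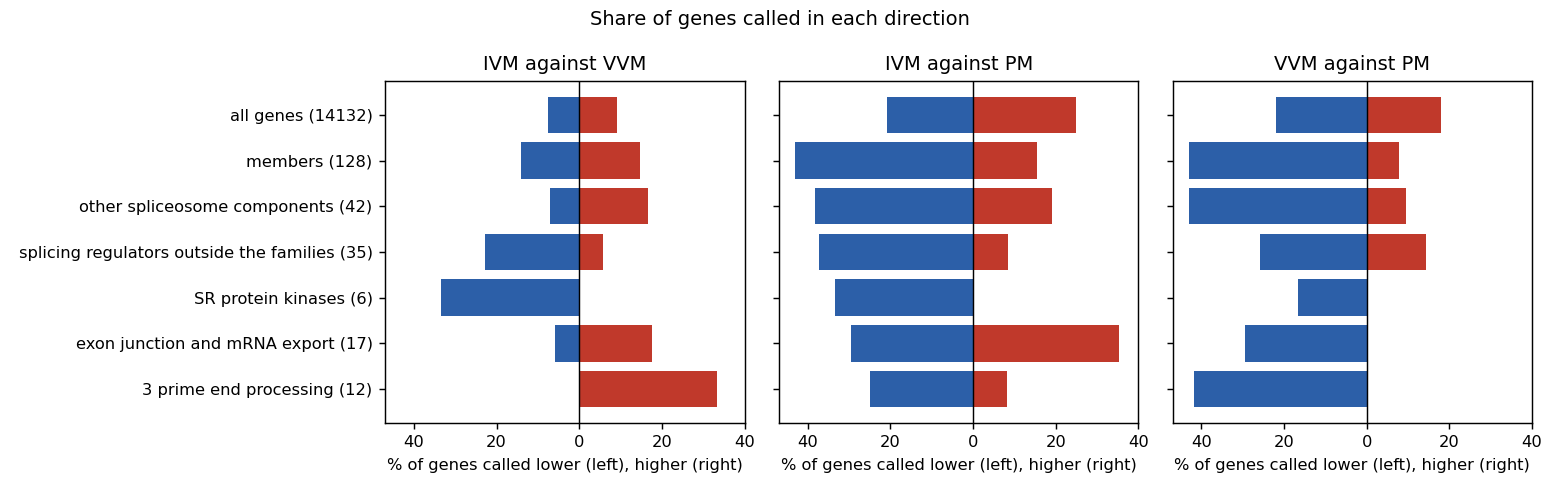
Share of genes called lower (blue, left of 0) and higher (red, right of 0) in the 3 comparisons, for all genes, for the 128 members and for 5 lists of other RNA processing genes (number of genes in brackets). The 128 genes have 43.0% called lower against PM in both IVM and VVM, where all genes have 20.9% and 21.8%.

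Calls for single genes differed in how far they rested on 1 array. In IVM against PM 57 of the 75 called genes were called in each of the 11 fits that left out 1 array, 15 of them higher and 42 lower. In VVM against PM 52 of 65 were, 7 higher and 45 lower, and in IVM against VVM 19 of 37 were, 10 higher and 9 lower. SRSF5, RBM3 and RBM38 were called between IVM and VVM under every alternative tried, including both array-level covariates. In VVM against PM 17 genes were, among them HNRNPC, HNRNPH1, PRPF19, PRPF39, SF3B4, SNRPA, SNRPB, SRSF8, U2AF1 and U2AF2. None of the 75 was so in IVM against PM, where the hybridization control covariate alone ended all calls.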

How the data were processed

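RNA of 11 rhesus cumulus samples was measured on Affymetrix arrays. Per the labels, RNA was isolated by PicoPure kit, and amplification started from 50 ng of total RNA and ran through repeated rounds of reverse and in vitro transcription, which shortens transcripts towards their 3′ ends. The deposited values are linear intensity, made by the authors with RMA in Affymetrix Expression Console per the submitters' processing notes, with no versions given. RMA aims to place all arrays on one distribution, which removes a shift shared by all genes. The deposited arrays still differed, with medians of 5.34 to 5.36 in PM, 5.45 to 5.53 in IVM and 5.43 to 5.49 in VVM. Their upper quartiles were 7.22 to 7.313 in PM and 7.076 to 7.155 on the IVM and VVM arrays. The part of this difference in the counts was not tested beyond the alternative normalizations. Log2 was taken without a pseudocount. Of 52865 probe sets, 99 controls of the array maker were left out. Symbols came from the platform annotation: 24956 probe sets had 1 symbol and 361 had several, and the latter were not used for genes.

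Group means were fitted with limma 3.58.1 in R 4.3.3 (8 residual and 3.3 prior degrees of freedom), and two-sided p-values were adjusted by Benjamini-Hochberg over 52766 probe sets per comparison. SE is that of the moderated fit. The method was tested on simulated data. The number of arrays limits the precision, and 6 of the 128 genes had a mean below the array medians (DDX53, DDX60L, DHX33, RBM11, RBM46 and RBM48). By group these numbered 6 in PM (with RBM41), 9 in IVM (with DDX59, PRPF39, RBM3 and RBM20) and 9 in VVM (with DDX55, PRPF39 and RBM20).

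Genes and lists were chosen with earlier results of these data known. Named per comparison were the 8 largest rises and falls among called genes whose groups did not overlap, the 2 largest differences in each of 11 role and 5 pathway lists, all SR genes, and RBM3. Other genes were named after their values were seen. Alternatives changed the normalization, filters, probe set, prior, weights, threshold, arrays and covariates. No sequences were used here.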

Additional observations from a re-analysis of the deposited data

Results flagged for a closer look

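In 4 cases the lowest array of a group of 4 stood far from the other 3. DDX3X read 10.67 on PM 4, with 11.17, 11.18 and 11.24 on the other PM arrays. DHX58 read 7.52 on PM 2, with 7.92, 7.98 and 7.98 on the others. SF3B2 read 9.21 on VVM 1, with 9.47, 9.52 and 9.52 on the others. SF3B4 read 8.36 on VVM 1, with 9.36, 9.43 and 9.52 on the others. Among 120 such groups of named genes examined, chance alone marks about 1 in 20.

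For 2 genes IVM and VVM both differed from PM by call, and the differences went in opposite directions. LSM10 differed by 0.54 and -0.65, and the difference between them, tested as IVM against VVM, was 1.19 (limma, adjusted p = 0.00178). DDX56 differed by 0.47 and -0.60, and the difference between them was 1.07 (adjusted p = 0.00192). In both genes the rise in IVM was lost in 5 of the 11 fits that left out 1 array.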

How the results depend on the processing

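In every alternative tried except the hybridization control covariate, which ended all calls of IVM against PM, more of the 128 genes were called lower than higher against PM. Median centring moved the median of all genes to -0.03 in IVM and -0.07 in VVM against PM, from 0.12 and 0.04, and that of the 128 genes to -0.44 and -0.50, with 6 rises in VVM. After a further quantile normalization their medians were -0.16 and -0.27, and with the probe set of widest interquartile range -0.52 and -0.50. The higher share of the calls of IVM against PM was 26.7% for the 128 genes, 18.9% after centring and 37.8% after quantile normalization, and for all genes 54.5% and, centred, 37.9%. For all genes in VVM against PM it was 45.3% and, centred, 32.6%. With the hybridization control covariate, the counts higher and lower were 0 and 0 in IVM against PM (6 and 19 at an unadjusted p under 0.05), 1 and 18 in VVM against PM, and 2 and 2 in IVM against VVM. The 3′ to 5′ signal covariate gave 6 and 29 in IVM against PM (964 and 1238 for all genes). A 2-fold minimum gave 5 and 30 in IVM against PM, 2 and 23 in VVM against PM, and 7 and 8 in IVM against VVM. All genes leaned lower with it too. The higher share of their calls was 28.4%, 33.2% and 39.2%, against 14.3%, 8.0% and 46.7% for the 128 genes. Without PM 1, VVM 2 and VVM 3, VVM against PM gave 3 and 34 (1153 and 1872 for all genes). IVM against VVM then gave 11 and 9 (657 and 736 for all genes). With only the 2 groups compared in the fit, 11 genes were lower in IVM than in VVM.

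Leaving out 1 array gave 17 to 20 higher and 45 to 56 lower in IVM against PM, 8 to 11 and 50 to 58 in VVM against PM, and 13 to 19 and 10 to 20 in IVM against VVM, where the lower count fell to 11 without IVM 1 and 10 without IVM 2. The medians ranged from -0.46 (without IVM 3) to -0.29, from -0.47 to -0.37, and from -0.06 (without IVM 3) to 0.11. With the replicate number as a block the counts were 19 and 47, 7 and 52, and 17 and 13. Arrays of the same number did not deviate together more than others (correlations of residuals from -0.107 to 0.101, against -0.118 to 0.117 for different numbers). This gives no sign of pairing by number but cannot exclude shared animals, which the labels do not give.

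The sign changed for 13 of 183 results of named genes that were called in the main fit, in the alternative or in both. Results called in neither fit also changed sign, 7 of them with the hybridization control covariate, and are not listed. Against PM in IVM, the hybridization control covariate gave -0.10 for DDX24, 0.13 for DHX15, 0.14 for DHX57 and 0.19 for GEMIN2, none called. Without cross-hybridizing probe sets, HNRNPDL was 0.18 and UPF3A 0.40 against PM, and UPF3A 0.09 between IVM and VVM. The mean of all probe sets gave -0.23 for DDX10 between IVM and VVM and -0.19 for DHX34 in VVM against PM. The probe set of widest interquartile range gave -0.73 for DDX10 between IVM and VVM, -0.66 for DHX34 and -2.34 for RBM47 in IVM against PM, and -0.94 for DHX34, -0.08 for HNRNPLL and -1.84 for RBM47 in VVM against PM. The causes were not tested, other than that the last 2 settings read other probes.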
